A study of Bos taurus with 38 samples.

Results

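The genes described here are those of the circadian clock in skeletal muscle of newborn beef calves. Of 10 clock genes sought (ARNTL, CLOCK, NPAS2, PER1, PER2, PER3, CRY2, NR1D1, NR1D2 and DBP), 4 had a symbol paired with an Ensembl gene ID in the gene tables that accompany the study: ARNTL (ENSBTAG00000013029), PER2 (ENSBTAG00000001879), CRY2 (ENSBTAG00000021223) and DBP (ENSBTAG00000006754). The other 6 were not analysed here. The 4 genes are among 27607 genes in the count table, and all 4 were among the 12964 genes that passed the filter on low counts. The tables list genes because the study called them changed in these calves or named them as predicted regulators, so ARNTL, PER2, CRY2 and DBP came to have a symbol partly through the treatment comparisons. Their treatment values are therefore a description. The comparison of sexes and the relations between calves within a treatment group are what the listing did not use. Correlations over all calves also hold the differences between groups, which the listing did use in part.

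RNA was sequenced from Longissimus dorsi biopsies, a back muscle, taken between 12 and 48 h after birth from 38 calves of crossbred Angus cows. Dams of the TR1, TR2 and TR3 calves were given selenium (Se) yeast boluses in the first trimester of gestation, in the second or in the third, at 3 boluses per week for 13 weeks and 105 mg of Se per week, and dams of the control calves (CTR) were given none. All dams, controls included, had a mineral supplement with 120 mg/kg Se. The groups held 10 CTR (4 females), 9 TR1 (2 females), 10 TR2 (3 females) and 9 TR3 calves (5 females), from dams of 5 to 9 years, 1 library per calf. The clock hour of the biopsy is not given in the sources used here, so an effect of treatment and an effect of the hour at which a group was sampled cannot be told apart.

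The circadian clock is a feedback loop of transcription that runs in almost every cell, muscle fibres included. ARNTL, also called BMAL1, pairs with CLOCK or NPAS2 and switches on the PER and CRY genes, whose proteins then repress the ARNTL pair. The nuclear receptors of the NR1D and ROR families repress and activate ARNTL in turn, and DBP is an output factor that is switched on directly by the ARNTL pair. Because of this wiring, ARNTL transcripts and the transcripts of PER genes and DBP are known to peak at roughly opposite times of the day in adult tissues, muscle among them.

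Total counts per calf ranged from 12921223 to 17471666. Levels are given as CPM, that is, read counts scaled to a common library total, after TMM scaling, which corrects for differences in composition between libraries, and levels of different genes are not compared because the values are not per length. Counts behind a value ranged from 9 to 255 for ARNTL, 21 to 459 for PER2, 119 to 684 for CRY2 and 44 to 192 for DBP, so ARNTL and PER2 were measured least precisely in the lowest calves. Summed CPM of 7 skeletal muscle markers (ACTA1, CKM, DES, MYL1, TNNT3, MYH1, MYH2) was 44019 to 164893, against 179 to 862 for 4 fibroblast markers, 17.7 to 271 for 2 leukocyte markers and 1.77 to 42.5 for 3 adipocyte markers. In a biopsy of mixed cells, fewer cells of a type and less RNA per cell cannot be told apart.

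A pair of libraries stood apart. Calf A2052 (TR1, female) had the lowest muscle marker sum, 44019 CPM, and the highest TMM factor, 1.35, of all calves. Calf A2099 (TR2, male) had a muscle marker sum of 124976 CPM, in the middle of the range. Both calves had the highest PER2 and were at the top for RORA, an activator of ARNTL, with 21.4 CPM in A2052 and 23.3 CPM in A2099, and for NAMPT, the enzyme that limits NAD synthesis and a known clock output, with 628 and 635 CPM. Results that rest on them are given with and without both calves.

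ARNTL, the activating arm of the loop, was lowest in CTR. Its level was 4.59 ± 1.98 CPM (SD, n = 10) in CTR calves, against 6.42 ± 2.71 CPM (n = 9) for TR1, 7.80 ± 5.17 CPM (n = 10) for TR2 and 5.80 ± 2.37 CPM (n = 9) for TR3. The lowest, median and highest CTR calf had 0.645, 4.56 and 7.68 CPM. The same values were 1.70, 6.73 and 10.7 CPM for TR1, 2.15, 7.02 and 18.4 CPM for TR2, and 3.62, 5.06 and 10.5 CPM for TR3. All groups overlapped, and TR2 spanned nearly the whole range of the series. The highest calf was A2099 and the lowest was A2096 of CTR, in which 9 reads were counted.

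The repressors behaved less alike. PER2 was 7.38 ± 2.93 CPM in CTR calves, against 8.13 ± 6.74 CPM for TR1, 8.61 ± 7.84 CPM for TR2 and 6.05 ± 2.43 CPM for TR3. The lowest, median and highest calves had 4.13, 7.23 and 14.2 CPM among CTR, 1.54, 6.14 and 24.2 CPM among TR1, 2.32, 5.64 and 27.5 CPM among TR2, and 2.57, 6.05 and 9.16 CPM among TR3 calves. The means of TR1 and TR2 lay above that of CTR and their medians below it, and the highest calf of each was A2052 and A2099.

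CRY2 was 34.8 ± 8.15 CPM in CTR calves, against 26.7 ± 5.55 CPM for TR1, 29.0 ± 12.7 CPM for TR2 and 35.4 ± 5.44 CPM for TR3. The lowest, median and highest calves had 17.6, 35.2 and 45.2 CPM among CTR, 17.5, 27.9 and 35.3 CPM among TR1, 9.40, 29.0 and 52.0 CPM among TR2, and 29.0, 33.8 and 44.8 CPM among TR3 calves. Both the lowest and the highest CRY2 of the series were in TR2, in calves A2023 and A2079. Another TR2 calf, A2100, was close to the lowest with 10.1 CPM.

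DBP, the output factor, was 7.54 ± 1.48 CPM in CTR calves, against 8.50 ± 2.61 CPM for TR1, 8.28 ± 3.33 CPM for TR2 and 6.25 ± 2.08 CPM for TR3. The lowest, median and highest calves had 5.68, 7.36 and 9.82 CPM among CTR, 4.59, 8.93 and 13.1 CPM among TR1, 3.71, 8.43 and 12.9 CPM among TR2, and 2.94, 6.82 and 9.29 CPM among TR3 calves. CTR calves were the most alike in DBP, and the groups overlapped.

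**Figure D1:**
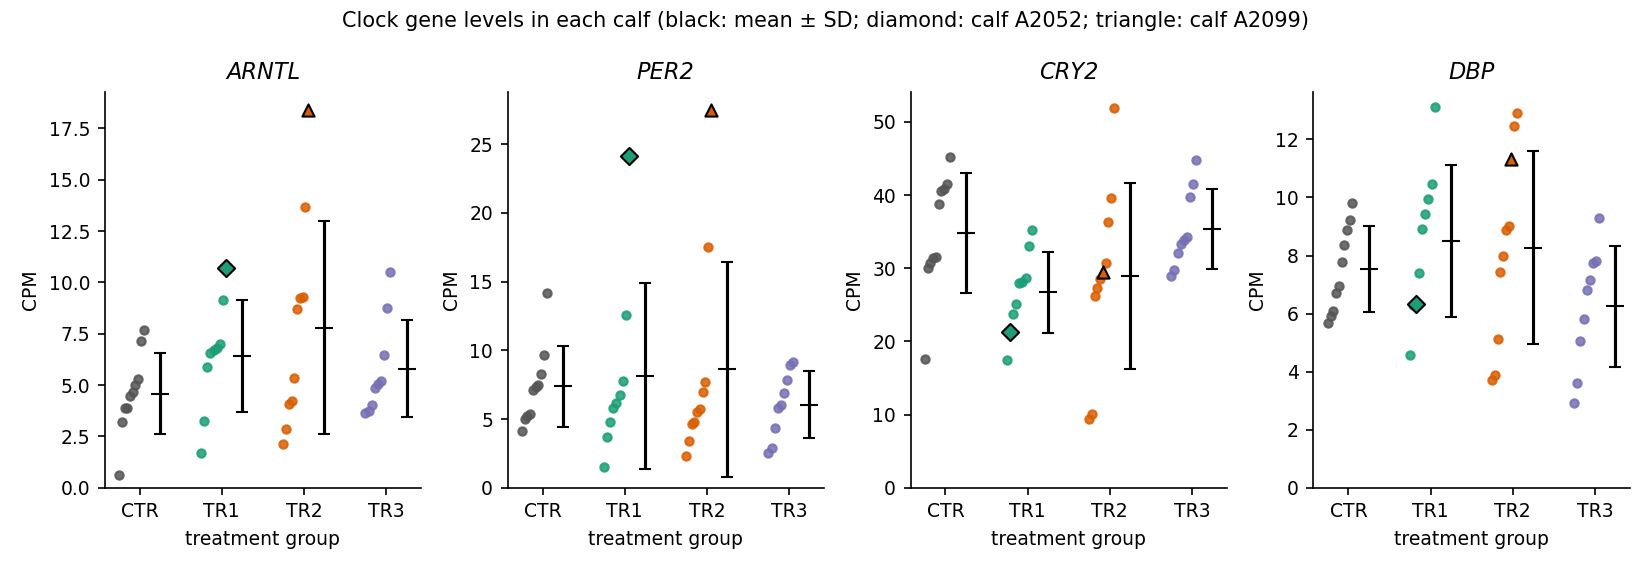
Level of ARNTL, PER2, CRY2 and DBP (CPM, from 0) in each of 38 calves by treatment group, with the mean ± SD in black and calves A2052 (diamond) and A2099 (triangle) marked. The groups overlap for every gene, and the marked calves hold the highest PER2 values, 24.2 and 27.5 CPM.

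The question whether maternal Se changed the clock genes was asked with edgeR's quasi-likelihood test over all 12964 genes, with dam age and offspring sex in the model and Benjamini-Hochberg adjustment. Against CTR no clock gene passed an adjusted p of 0.05 for any trimester of supplementation, nor did any other gene, so that 0% of genes were called each time. At an unadjusted p under 0.05, 1 of the 4 clock genes passed in TR2 vs. CTR, where 8.34% of all genes did, and 0 of 4 passed in TR1 and in TR3, where 2.55% and 1.35% of all genes did. DESeq2 called none of the 4 in any of the comparisons and 0, 1 and 0 genes in all (367, 1175 and 197 genes before adjustment). The test of any difference among the 4 groups gave adjusted p from 0.892 to 0.943 for the 4 genes, and 6.09% of all genes had an unadjusted p under 0.05 in it.

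ARNTL was the clock gene at an unadjusted p under 0.05 in TR2. Its log2 fold change vs. CTR was 0.71 (SE 0.34) in TR2 by edgeR, with an unadjusted p of 0.0430 and an adjusted p of 0.589. In TR1 it was 0.55 (SE 0.35) and in TR3 0.50 (SE 0.36), with adjusted p of 1.00 in both by edgeR. The 3 comparisons share the CTR calves, of which A2096 was the lowest in ARNTL of the series. Without A2052 and A2099 the edgeR log2 fold change of ARNTL was 0.30 in TR1, 0.49 in TR2 (unadjusted p 0.132) and 0.56 in TR3.

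CRY2 had a log2 fold change of -0.36 (SE 0.21) in TR1, -0.27 (SE 0.20) in TR2 and 0.02 (SE 0.22) in TR3, with unadjusted p of 0.0890, 0.184 and 0.926 in the edgeR fit. The difference between TR3 and TR1 was 0.39 (SE 0.22) with an edgeR adjusted p of 0.868. PER2 had log2 fold changes of 0.03 (SE 0.40) in TR1, 0.26 (SE 0.38) in TR2 and -0.42 (SE 0.41) in TR3. Without A2052 and A2099 these were -0.33, -0.20 and -0.41. The TR1 value was far smaller than its SE, and its sign turned without any 1 of 8 calves. With each calf left out in turn, the sign of PER2 in TR2 turned only without A2099. DBP had log2 fold changes of 0.17 (SE 0.22), 0.12 (SE 0.22) and -0.24 (SE 0.23).

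**Figure D2:**
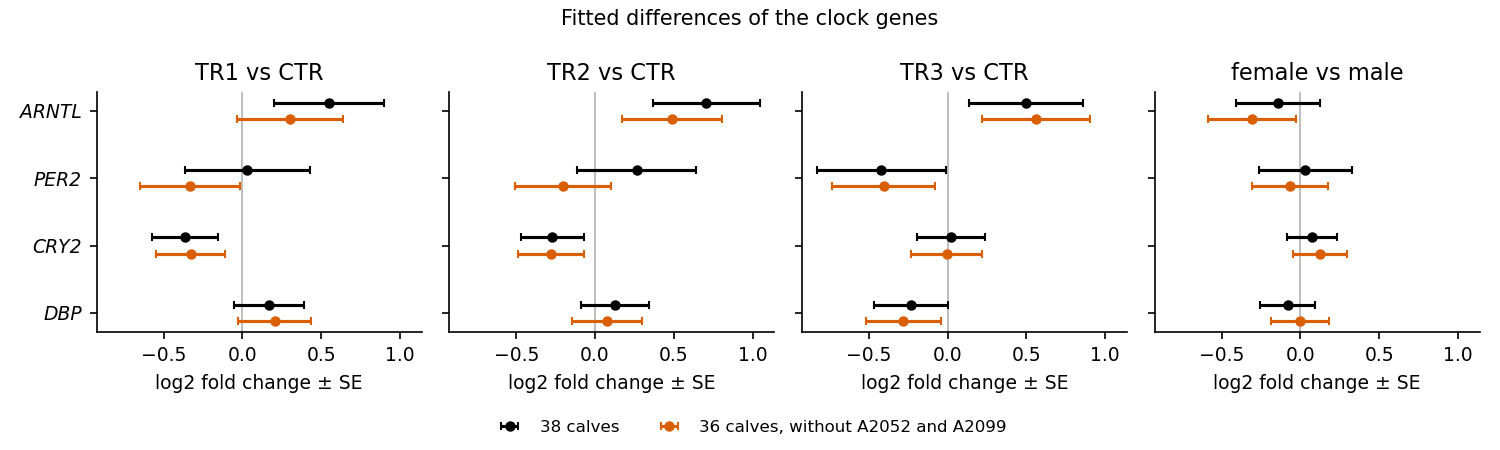
Log2 fold change ± SE of each clock gene in females vs. males and in the treated groups vs. CTR, from the edgeR fit to 38 calves (black) and to 36 calves without A2052 and A2099 (orange). ARNTL lies above 0 in the 3 treatment comparisons, and PER2 moves across 0 in TR1 and TR2 when those calves are left out.

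Offspring sex, a comparison that played no part in the listing of symbols, gave no call. ARNTL had a median of 4.44 CPM in 14 females and 5.61 CPM in 24 males, with a female vs. male log2 fold change of -0.14 (SE 0.27). Without A2052 and A2099 that log2 fold change was -0.31 (SE 0.28). With all calves kept, the other log2 fold changes were 0.03 (SE 0.29) for PER2, 0.07 (SE 0.16) for CRY2 and -0.08 (SE 0.17) for DBP. The edgeR adjusted p in that fit was from 0.966 to 0.994 over the 4 genes. In this comparison 0.0309% of all genes were called and 6.61% had an unadjusted p under 0.05, which none of the 4 had. Nor did any of the 4 pass for dam age, where 3.36% of genes had an unadjusted p under 0.05.

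Calves differed widely, within groups as well as over the series. From the lowest to the highest of all 38 calves, ARNTL spanned 23.6-fold and PER2 16.4-fold on log2 CPM with a prior count of 2, against 5.46-fold for CRY2 and 4.31-fold for DBP. The residual SD of log2 CPM after group, sex and dam age was 0.83 for ARNTL and 0.86 for PER2, larger than in 92.8% and 93.7% of the genes tested. CRY2 and DBP had residual SDs of 0.50 and 0.51, at percentiles 70.5 and 71.2, and the median over all genes was 0.37. Group, sex and dam age together accounted for 14.3% of the variance of ARNTL, 6.89% for PER2, 16.7% for CRY2 and 11.9% for DBP. These shares are not adjusted for the number of fitted terms, which take up part of the variance even of a gene unrelated to them. CIART, a repressor of the ARNTL pair that is itself under clock control, had a residual SD of 0.82, at percentile 92.7.

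The calves lowest in ARNTL were compared in the other clock genes, and were chosen for this after their values were seen. Calf A2096 (CTR), lowest of all in ARNTL, was the highest CTR calf in PER2, CRY2 and DBP, with 14.2, 45.2 and 9.82 CPM. Calf A2047 (TR1), next lowest in ARNTL with 1.70 CPM, had 12.6 CPM of PER2, 33.1 of CRY2 and 9.44 of DBP, and the highest CIART of the series at 6.31 CPM. Calf A2090 (TR2), the next after it, with 2.15 CPM, had 17.5 CPM of PER2, 39.6 of CRY2 and 12.9 of DBP. At the other end, A2100 (TR2), with 13.7 CPM of ARNTL, had 2.32 CPM of PER2, 10.1 of CRY2 and 5.14 of DBP. These 4 calves came from 3 of the 4 groups. Of the 3 calves highest in ARNTL, the other two, A2099 and A2052, departed from A2100: they were also the 2 highest in PER2. A2047 was at rank 16 of 38 in CRY2, near the middle.

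ARNTL and CRY2 were opposed across calves. Spearman's rho over 38 calves was -0.60 (permutation p 0.00013, adjusted p 0.00078 over the 6 pairs of clock genes) and Pearson's r was -0.49 (permutation p 0.00294, adjusted p 0.00882). Without the 2 calves farthest from the median of ARNTL, A2096 and A2099, r was -0.51. Among 12963 other genes, CRY2 was at rank 2 from the negative end of rho with ARNTL (rank 45 on residuals after group, sex and dam age), and 3.58% of genes had a negative rho past the unadjusted permutation threshold of 0.322 in size. Within groups rho was -0.20 for CTR, -0.35 for TR1, -0.67 for TR2 and -0.70 for TR3, and within sexes it was -0.68 in males and -0.38 in females. It was negative in every group and both sexes, and by exact or permutation tests adjusted over the 6 pairs it passed 0.05 in males alone. Whether the groups or sexes differed in rho was not tested. On residuals after group, sex and dam age rho was -0.51 (permutation adjusted p 0.00375). On residuals also after the first principal component of all genes, chosen after seeing the data, it was -0.35 (permutation adjusted p 0.0381). Both p values are somewhat too small, because the permutation ignored the terms already fitted.

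ARNTL and PER2 were also opposed, less tightly. Over 38 calves rho was -0.41 (permutation p 0.0114, adjusted p 0.0229), and r was -0.26 (permutation p 0.110, adjusted p 0.132). Without A2096 and A2099, the 2 calves farthest from the median of ARNTL, r was -0.42. Without A2052 and A2099, which were high in both genes, rho was -0.65 (permutation adjusted p 0.00012). These 2 calves were chosen after seeing the data and lie against a negative relation. Leaving them out therefore favours a more negative rho, and the p does not allow for that choice. Within groups rho was -0.37 for CTR, 0.20 for TR1, -0.32 for TR2 and -0.90 for TR3 (exact permutation adjusted p 0.0122 in TR3). In TR1 the rho of 0.20 had an exact permutation p of 0.613 before adjustment and r was -0.01, so no direction could be read there. On residuals after group, sex and dam age the rho of ARNTL and PER2 was -0.38.

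The repressors PER2 and CRY2 rose and fell together. Over 38 calves rho was 0.49 (permutation p 0.00204, adjusted p 0.00612) and r was 0.39 (permutation p 0.0170, adjusted p 0.0340). Without A2052 and A2099, which are the 2 calves farthest from the median of PER2, r was 0.57 and rho was 0.63. The within-group rho was 0.47 for CTR, 0.27 for TR1, 0.71 for TR2 and 0.75 for TR3, positive in each. It was 0.70 in males and 0.27 in females. On residuals after group, sex and dam age rho was 0.52.

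PER2 and DBP, both targets of the ARNTL pair, were positively related. Over 38 calves rho was 0.39 (permutation p 0.0168, adjusted p 0.0253) and r was 0.48 (permutation p 0.00247, adjusted p 0.00882), with r 0.52 without the 2 calves farthest from the median of PER2. The within-group rho was 0.37, 0.30, 0.64 and 0.13 in CTR, TR1, TR2 and TR3. On residuals after group, sex and dam age rho was 0.48. Leaving out any of 7 calves in turn (A2040, A2023, A2054, A2090, A2099, A2024 or A2085) raised the adjusted p of this pair above 0.05, with a lowest rho of 0.34. Among all genes, DBP was at rank 243 and CRY2 at rank 42 from the positive end of rho with PER2, and 4.76% of genes passed the permutation threshold in that direction.

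DBP was not clearly related to CRY2 or to ARNTL when all calves were pooled. For CRY2 and DBP rho was 0.19 (permutation p 0.244, adjusted p 0.293) and r was 0.34 (permutation p 0.0386, adjusted p 0.0579), with r 0.14 without A2023 and A2100, the 2 calves farthest from the median of CRY2. On residuals after group, sex and dam age the rho of this pair was 0.44 (permutation adjusted p 0.0089). That p is somewhat too small, because the permutation ignored the terms already fitted. On levels the rho of CRY2 and DBP was 0.60 within CTR, 0.72 within TR1, 0.49 within TR2 and 0.00 within TR3. For ARNTL and DBP rho was -0.14 (permutation p 0.386, adjusted p 0.386) and r was -0.23 (permutation p 0.168, adjusted p 0.168), with r -0.30 without A2096 and A2099. Over the 6 pairs, 4 passed an adjusted p of 0.05 by rho and 3 passed both by rho and by r.

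**Figure D3:**
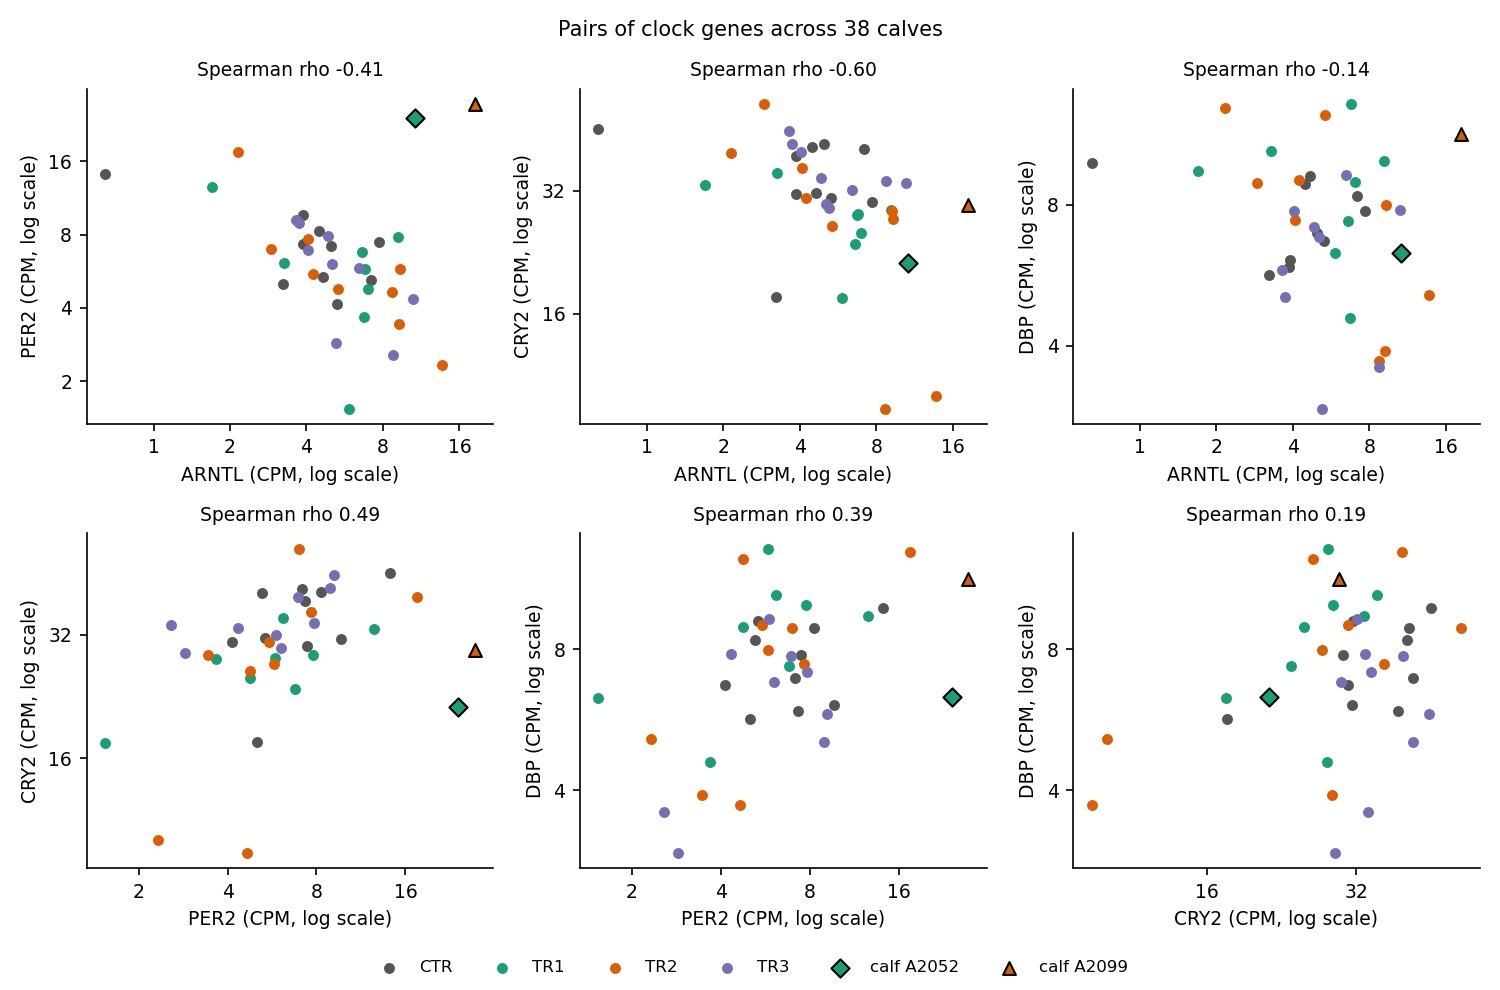
The 6 pairs of clock genes in 38 calves, both axes in CPM on a log scale, coloured by treatment group, with calves A2052 and A2099 marked and Spearman's rho above each panel. ARNTL falls as CRY2 rises (rho -0.60), PER2 and CRY2 rise together (rho 0.49), and A2052 and A2099 lie off the trend of ARNTL and PER2.

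**Figure D4:**
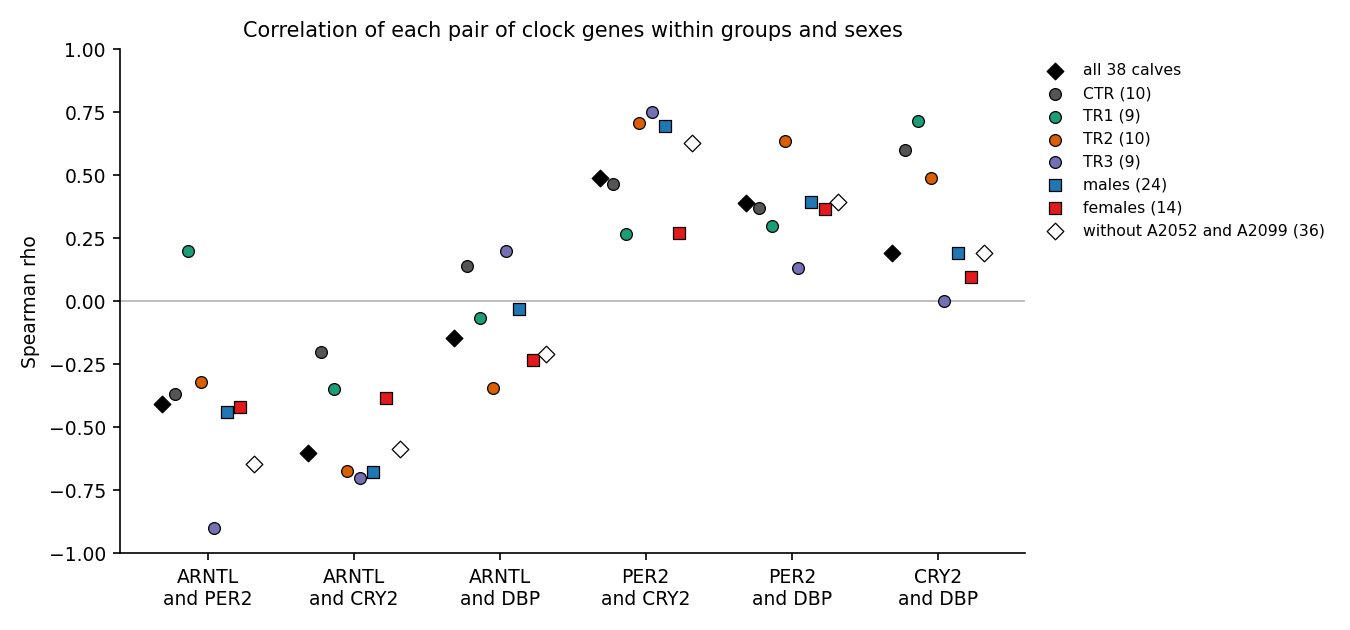
Spearman's rho of each pair in all 38 calves, within each treatment group, within each sex and without calves A2052 and A2099, on an axis from -1 to 1. ARNTL and CRY2 stay below 0 and PER2 and CRY2 above 0 in every group and sex, while ARNTL and PER2 are at 0.20 in TR1 and -0.90 in TR3.

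Some measures of library quality and of other cell types moved with the clock genes. Over 38 calves the rho of ARNTL was 0.01 with total counts and -0.09 with the TMM factor, and that of CRY2 was -0.08 and 0.08. Of the summed markers of 8 cell types, the largest in size were smooth muscle markers with DBP (rho -0.38) and adipocyte markers with ARNTL (rho -0.36). No other marker sum passed that threshold. The second principal component of all genes had a rho of 0.35 with PER2. DBP had a rho of -0.26 with the TMM factor and 0.31 with the share of reads in the top 10 genes. Skeletal muscle markers had a rho of 0.02 with ARNTL, -0.07 with PER2, 0.16 with CRY2 and 0.31 with DBP. The part of these measures in the correlations was not tested, apart from the first principal component.

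Of 26 other genes of the clock sought, 10 had a symbol paired with an ID. They were the repressors CIART and BHLHE41, the nuclear receptor RORA, HLF (a factor related to DBP), the kinases CSNK1D and CSNK1E that phosphorylate PER proteins, the deubiquitinase USP2, and the outputs WEE1, NAMPT and NOCT. For 9 of the 10, all but RORA, the symbol came from the study's lists of genes called in a treated group vs. CTR, and for NAMPT, CSNK1D and CSNK1E from its TR2 list, so the treatment counts that follow restate that listing and are no independent evidence of direction. All 10 passed the filter, and none was called at an adjusted p of 0.05 by edgeR in any treatment comparison or between sexes. In TR2 vs. CTR 9 of the 10 had a log2 fold change above 0, where 51.3% of all genes did, with a median of 0.27 against 0.01 over all genes, and 3 of 10, the genes of the TR2 list, had an unadjusted p under 0.05, where 8.34% of all genes did. In TR1 vs. CTR 9 of 10 lay above 0 (50.4% of all genes, median 0.17) and 0 of 10 had an unadjusted p under 0.05, and in TR3 vs. CTR 5 of 10 lay above 0 (47.2% of all genes, median -0.0099), again with 0 of 10. All 3 comparisons share the CTR calves.

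NAMPT had the largest difference of the wider clock genes. Its lowest, median and highest levels were 47.8, 72.5 and 121 CPM in CTR, 50.1, 83.7 and 628 CPM in TR1, 62.3, 116 and 635 CPM in TR2, and 56.3, 86.9 and 130 CPM in TR3. In TR1 calf A2052 and in TR2 calves A2099, A2023 and A2100 lay far above the rest, and the groups overlapped. In TR2 vs. CTR the log2 fold change was 1.64 (SE 0.41), with an edgeR adjusted p of 0.497, and without A2052 and A2099 it was 1.14 (SE 0.30, adjusted p 0.579). The casein kinases CSNK1D and CSNK1E had log2 fold changes of 0.35 (SE 0.14) and 0.43 (SE 0.20) in TR2, with edgeR adjusted p of 0.550 and 0.589.

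Across calves, 40 pairs of a clock gene with one of these 10 genes were compared. None passed an adjusted p of 0.05 by rho, and 9 of 40 had an unadjusted permutation p under 0.05, where 7.07% of all genes passed the same threshold with ARNTL, 10.9% with PER2, 8.08% with CRY2 and 12.3% with DBP. CIART had the most pairs at an unadjusted permutation p under 0.05 by rho, and none of them passed after adjustment. Its rho was -0.45 with ARNTL (permutation adjusted p 0.0902 over 40 pairs), 0.40 with PER2 (adjusted p 0.0947), 0.32 with CRY2 (adjusted p 0.186) and 0.49 with DBP (adjusted p 0.0844). The r of CIART was -0.45 with ARNTL (permutation adjusted p 0.0285) and 0.49 with DBP (adjusted p 0.0196), and these were -0.50 and 0.42 without the 2 calves farthest from the median of ARNTL and of DBP. On residuals after group, sex and dam age, CIART passed with all 4 clock genes, with rho of -0.50, 0.44, 0.49 and 0.44 for ARNTL, PER2, CRY2 and DBP (permutation adjusted p 0.0392 to 0.0427). These adjusted p values lie near 0.05 and are somewhat too small, because the permutation ignored the terms already fitted. Whether the pairs would pass with that allowed for was not tested. NOCT, a gene with rhythmic expression, had a rho of -0.41 with ARNTL (permutation adjusted p 0.0947), and BHLHE41 had a rho of 0.43 with DBP (permutation adjusted p 0.0947).

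Other relations by r were smaller without the 2 calves farthest from the median of the clock gene. CRY2 had an r of -0.65 with CSNK1D, -0.60 with CSNK1E and -0.54 with NAMPT (permutation adjusted p 0.0072, 0.0136 and 0.0196). Without A2023 and A2100, which were lowest in CRY2, r was -0.30, -0.24 and -0.26. PER2 had an r of 0.49 with RORA (permutation adjusted p 0.0207), and 0.10 without A2052 and A2099. In ranks these 4 pairs had rho of -0.40, -0.16, -0.30 and 0.37.

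**Figure D5:**
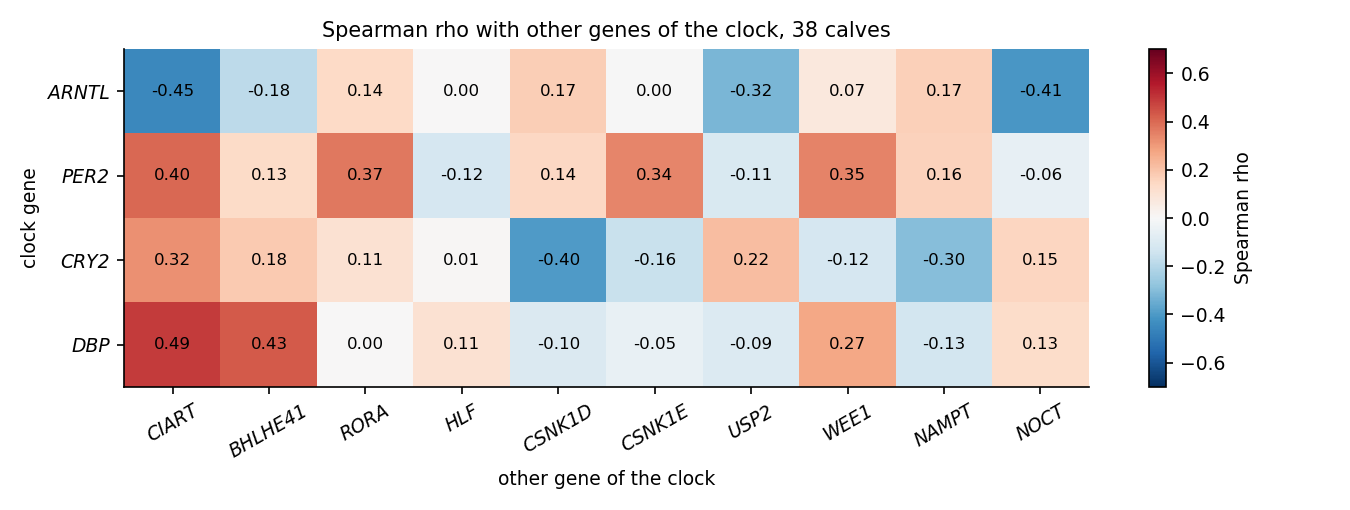
Spearman's rho over 38 calves of ARNTL, PER2, CRY2 and DBP (rows) with 10 other genes of the clock (columns), red above 0 and blue below. CIART is negative with ARNTL (-0.45) and positive with PER2 (0.40), CRY2 (0.32) and DBP (0.49), while HLF and NAMPT lie between -0.30 and 0.17.

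Glucocorticoids are known to act on PER genes, and a list of 6 genes that respond to them (FKBP5, TSC22D3, PDK4, KLF15, DDIT4, CEBPD) was set beside the clock genes. None of the 24 pairs passed an adjusted p of 0.05 by rho, with 3 at an unadjusted permutation p under 0.05. By r, PER2 passed with KLF15, DDIT4 and CEBPD (0.52, 0.47 and 0.49, permutation adjusted p 0.0240 for each), and without A2052 and A2099 r was 0.23, 0.36 and 0.14. All 6 have their symbol from the treatment lists, and FKBP5 and CEBPD among others from that of TR2. In TR2 vs. CTR these 2 of the 6 genes had an unadjusted p under 0.05, where 8.34% of all genes did, with log2 fold changes of 1.49 (SE 0.44) and 1.45 (SE 0.55), and neither was called (edgeR adjusted p 0.497 and 0.545). Without A2052 and A2099 the log2 fold changes were 1.05 (SE 0.38) for FKBP5 and 0.86 (SE 0.31) for CEBPD.

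Of all genes tested that had a symbol, NR4A1, a nuclear receptor of the immediate early class, had the most negative rho with ARNTL, at -0.63 over 38 calves (-0.73 on residuals after group, sex and dam age). After it came CRY2, SLC25A25 (rho -0.60), a mitochondrial carrier of ATP-Mg and phosphate, MYO1A (-0.52) and BPGM (-0.48). The most positive were BTBD11 (0.59), RNF19B (0.57), LENG9 (0.57), LIG3 (0.54), a DNA ligase, and LONRF3 (0.50). For PER2 these were DDO (0.67), which oxidizes D-aspartate, ID2 (0.59) and SRRM5 (0.56), and at the negative end CHEK2 (-0.61), ADAMTS4 (-0.59) and FZD9 (-0.57). CRY2 was most like MPDZ (0.58), BCHE (0.56) and INPP5D (0.56) and most unlike RAB11FIP1 (-0.64), ARNTL (-0.60) and BCOR (-0.56). DBP was most like NR3C1 (0.63), the glucocorticoid receptor, TTC28 (0.61) and PLCD3 (0.55), and most unlike TMEM150A (-0.66), NAA50 (-0.58) and PPP2R1B (-0.57). These genes were picked as the extremes among the genes with a symbol, so their rho is a description with no test. Among all 12963 other genes some were less extreme. For ARNTL, BPGM was at rank 21 from the negative end and LONRF3 at rank 22 from the positive end. The symbols came from the study's gene tables, so the pool was itself chosen partly on treatment.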

How the data were processed

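Muscle RNA-seq of 38 calves was analysed. The authors removed adaptors and low-quality reads, mapped the rest to ARS-UCD1.2 with STAR and deposited raw counts per Ensembl gene. The strand column kept is not given in the sources used here, so antisense or overlapping genes could share reads. Gene symbols came from the study's supplementary gene tables, which pair 2880 IDs, and their columns of fold changes and p values were not used. Symbols of the clock genes, of the wider clock and glucocorticoid lists and of the cell type markers, and the tests, were chosen with earlier results of these data known.

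Counts of 12964 genes kept by filterByExpr were tested with the quasi-likelihood test of edgeR 4.0.16 in R 4.3.3 (TMM, with dam age, sex and group), adjusted by Benjamini-Hochberg over all genes. SE was derived from the log2 fold change and its F. The study itself tested values transformed by DESeq2 with another method. Correlations used log2 CPM with a prior count of 2, two-sided permutation tests with 100000 resamples (exact within groups, 10000 with a calf left out) and adjustment over each family of pairs. Replicates are separate calves.

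Genes named are the clock genes, the wider list, the glucocorticoid list as a group and, with a symbol, the 5 highest and 5 lowest rho for ARNTL and 3 and 3 for each other clock gene. Alternatives were DESeq2 1.42.0, size factors or plain library size for TMM, all genes kept, covariates dropped or dam age made a factor, calf number as a term, a robust fit, only the groups compared, each calf left out, and for correlations other transformations, residuals, groups and sexes. The first principal component and leaving out A2052 and A2099 were chosen after seeing the data. Fits were tested on simulated data.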

Additional observations from a re-analysis of the deposited data

Results flagged for a closer look

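Over 14 clock genes and 4 groups, 56 sets of CPM values were checked for a calf that lay apart from the rest of its group by Dixon's criterion, and 9 were found. The criterion gives about 1 in 20 for independent sets of normal values. These sets were CPM without a log and shared the same 38 calves, so that rate is no yardstick for the 9. All 9 were calf A2052 of TR1 or calf A2099 of TR2. In A2052 PER2 was 24.2 CPM (next calf 12.6), RORA 21.4 (next 5.43), CSNK1D 118 (next 72.6), CSNK1E 35.3 (next 15.3), WEE1 15.2 (next 11.2) and NAMPT 628 (next 128), and NOCT was the lowest of TR1 with 5.69 CPM (next 26.1). In A2099 RORA was 23.3 CPM (next 9.05) and NOCT was the lowest of TR2 with 16.7 CPM (next 26.7). Beside these values, A2052 had the lowest skeletal muscle and fibroblast marker sums of 38 calves, 44019 and 179 CPM, and the highest endothelial marker, 69.5 CPM, whereas A2099 had 124976, 307 and 59.3 CPM. The part of these measures in the clock gene values was not tested.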

How the results depend on the processing

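None of the 4 clock genes was called under any alternative in any treatment comparison or between sexes. The sign of a fold change, for the 4 clock genes and the 10 wider clock genes, turned in the cases that follow, none of them called. With dam age as a factor, the value was -0.16 for PER2 in TR1 vs. CTR, -0.17 for RORA in TR1 vs. CTR, 0.0462 for HLF in TR2 vs. CTR, -0.0119 for CSNK1D in TR3 vs. CTR, -0.0942 for PER2 in female vs. male and -0.0121 for BHLHE41 in female vs. male. With only the groups compared in the fit, the value was -0.0385 for PER2 in TR1 vs. CTR, -0.0376 for RORA in TR1 vs. CTR, -0.18 for HLF in TR3 vs. CTR and 0.00569 for NAMPT in TR3 vs. CTR. Without calves A2052 and A2099, the value was -0.33 for PER2 in TR1 vs. CTR, -0.59 for RORA in TR1 vs. CTR, -0.0373 for CSNK1E in TR1 vs. CTR, -0.20 for PER2 in TR2 vs. CTR, -0.0948 for RORA in TR2 vs. CTR, 0.0336 for NAMPT in TR3 vs. CTR, -0.00773 for CRY2 in TR3 vs. CTR, -0.0103 for BHLHE41 in TR3 vs. CTR, 0.0283 for CSNK1E in TR3 vs. CTR, -0.0666 for PER2 in female vs. male and -0.14 for CSNK1E in female vs. male. With no covariates, the value was -0.0113 for HLF in TR3 vs. CTR, 0.17 for NAMPT in TR3 vs. CTR, 0.0457 for CSNK1E in TR3 vs. CTR, -0.0507 for PER2 in female vs. male, -0.0886 for NAMPT in female vs. male, -0.0222 for BHLHE41 in female vs. male and -0.0233 for CSNK1E in female vs. male. With sex left out, the value was 0.00518 for NAMPT in TR3 vs. CTR. With the number in the calf name as a term, the value was -0.0226 for PER2 in female vs. male. With library size in place of TMM, the value was 0.00558 for WEE1 in female vs. male, 0.0551 for RORA in female vs. male and 0.0204 for CSNK1D in female vs. male. The fits without A2052 and A2099 were chosen after seeing the data. With each calf left out in turn, the log2 fold changes whose sign turned had these ranges. In TR1 vs. CTR the ranges were -0.31 to 0.19 for PER2, -0.0166 to 0.25 for NOCT, -0.0850 to 0.14 for USP2, -0.62 to 0.15 for RORA and -0.0364 to 0.28 for CSNK1E. In TR2 vs. CTR the ranges were -0.21 to 0.41 for PER2, -0.000506 to 0.11 for WEE1, -0.18 to 0.00481 for HLF and -0.0385 to 0.48 for RORA. In TR3 vs. CTR the ranges were -0.27 to 0.13 for NAMPT, -0.33 to 0.0441 for RORA, -0.0590 to 0.0838 for CRY2, -0.00883 to 0.16 for BHLHE41 and -0.12 to 0.0248 for CSNK1E. In female vs. male the ranges were -0.25 to 0.19 for PER2, -0.15 to 0.00791 for WEE1, -0.23 to 0.00454 for HLF, -0.0717 to 0.16 for USP2, -0.13 to 0.50 for NAMPT, -0.59 to 0.14 for RORA, -0.15 to 0.0242 for CSNK1D, -0.0230 to 0.13 for CRY2, -0.14 to 0.13 for BHLHE41 and -0.13 to 0.15 for CSNK1E. In TR2 vs. CTR the sign of PER2 and of RORA turned only without A2099, and the lowest values of PER2 and RORA in TR1 were those without A2052.

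Within single groups and sexes most correlations did not pass an adjusted p of 0.05, where fewer calves were tested. For ARNTL and PER2 rho was -0.37 for CTR, -0.32 for TR2, -0.44 for males and -0.42 for females, and 0.20 for TR1. For ARNTL and CRY2 it was -0.20 for CTR, -0.35 for TR1, -0.67 for TR2, -0.70 for TR3 and -0.38 for females. For PER2 and CRY2 it was 0.47 for CTR, 0.27 for TR1, 0.71 for TR2, 0.75 for TR3 and 0.27 for females. For PER2 and DBP it was 0.37 for CTR, 0.30 for TR1, 0.64 for TR2, 0.13 for TR3, 0.40 for males and 0.37 for females, and 0.34 to 0.44 with each calf left out. ARNTL and DBP turned to 0.14 for CTR and 0.20 for TR3, and CRY2 and DBP to 0.00 for TR3. CRY2 and DBP passed 0.05 on residuals after group, sex and dam age (0.44), also after calf number (0.45) and also after the first principal component (0.38). Of the 40 pairs with the wider clock genes, none of which passed by rho on levels, 1 passed with library size in place of TMM, 7 on those residuals, 6 also after calf number, 3 also after the first principal component and 2 without A2052 and A2099. Permutation p values on residuals are somewhat too small, as stated above, and the cause of these changes was not tested. Library size in place of TMM changed the split of genes at an unadjusted p under 0.05 in TR2 vs. CTR from 652 higher and 429 lower to 300 higher and 645 lower, and in TR1 vs. CTR from 220 higher and 111 lower to 509 higher and 51 lower. Of the 28 genes named as most or least like a clock gene, 27 were named again on variance-stabilised values and 13 on residuals. No paired analysis was possible because the numbers that name calves within a group follow the order of the records and tie no calf of one group to a calf of another. At 9 to 255 reads for ARNTL, counting error alone is large in the lowest calves.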
